A study of Solanum lycopersicum with 32 samples.

Results

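The response to heat was measured in stems of tomato plants that carry pHS:FT, a transgene for heat-inducible expression of Arabidopsis FT. The comparison holds 4 of the series' 32 RNA-seq libraries, chosen by their labels: 2 from heated and 2 from unheated sft pHS:FT plants. The series has 16 groups of 2 libraries, and the heat-shock experiment has 4 of them. The other 2 are heated and unheated sft plants with no transgene label. All 4 groups therefore carry the sft mutation by label, including the unheated plants and those with no transgene label. Stems were sampled as 5 internode mid-segments, harvested 2 h after dawn, and read as single 50 bp reads. The temperature and length of the heat treatment, the time from heat to harvest, the promoter behind the name pHS and the number of transgenic lines were not stated in the labels. Both libraries of a group share a label number, and nothing says that they came from separate plants. The p-values therefore measure against the spread between libraries of a group, which may be technical. That spread was estimated over all 4 groups of the experiment together, so the sft libraries also enter it.

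Florigen is the mobile flowering signal made in leaves, encoded by FT in Arabidopsis and by SINGLE FLOWER TRUSS (SFT) in tomato. It moves through the phloem and acts with bZIP factors to switch on flowering genes, among them MADS-box genes of the FRUITFULL clade such as FUL2. Heat on its own drives a separate and broad response in plants, in which heat stress transcription factors turn on chaperones while other genes are turned down. A heat-inducible FT transgene therefore joins a heat response and a florigen pulse in the same tissue. By their labels, the sft plants with no transgene are the comparison for heat alone.

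The 8 libraries of the experiment held between 16583755 reads (heated pHS:FT, replicate 2) and 27988274 reads (unheated sft, replicate 1), so that 3 reads corresponded to between 0.107 and 0.181 CPM (reads scaled to a common library total). The files do not pair the Solyc identifiers with gene names, and 0 of 34728 identifiers matched the reference table, so genes are given by identifier, at most a few per comparison. Chromosomes are those written in the identifiers. The row for SFT was taken as the one with the largest rise in 35S:SFT over wild-type stems (524-fold with wild type set to 3 reads per library, against 88.1-fold for the next row). The row for FUL2 was taken likewise from 35S:TFUL2 stems (381-fold, against 121-fold for the next).

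One library goes against its label. The library labelled unheated sft replicate 1 held 12 reads of Arabidopsis FT, where its partner and both heated sft libraries held 0. It also stood above its partner in 44 of the 48 genes that rose 8-fold or more with heat in pHS:FT plants (91.7%, against 51.6% of all genes tested), with a median ratio of 2.48. Among the 591 genes that fell with heat in pHS:FT plants it was also the higher of the pair in 376 (63.6%). The median ratio there was 1.06, beside 1.01 over all genes tested. The cause of these differences was not tested. This library enters the comparison of heated with unheated pHS:FT only through the shared estimate of the spread. It is, however, 1 of the 2 unheated sft libraries. Results that rest on it are therefore given with and without it.

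The transgene transcript rose with heat. Arabidopsis FT had 57 reads in heated pHS:FT replicate 1 and 70 in replicate 2, or 2.65 and 4.08 CPM. Each unheated pHS:FT library held 1 read, 0.0442 and 0.0424 CPM. Both heated libraries were far above both unheated ones, and the heated libraries differed from each other by less than either differed from the unheated pair. The ratio of summed reads was 75.8, with a 95% counting interval of 20.6 to 633 that covers counting error only. The log2 fold change was 6.10 with a standard error (SE) of 1.07, and edgeR's quasi-likelihood test gave a Benjamini-Hochberg adjusted p of 0.029 over 20546 genes, or 0.0081 without unheated sft replicate 1. Over 16 alternative fits the adjusted p ran from 0.00017 to 0.19. With 1 library left out, the call was lost without heated replicate 2, either unheated pHS:FT library or either heated sft library (edgeR adjusted p from 0.057 to 0.19).

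The endogenous florigen transcript was low throughout and did not pass the test. SFT stood at 1.30 and 1.22 CPM in the heated pHS:FT libraries (28 and 21 reads) and at 2.96 and 3.10 CPM in the unheated ones (67 and 73 reads). The groups did not overlap, and the heated pair was the lower one. The log2 fold change was -1.26 (SE 0.37), with an edgeR adjusted p of 0.087. In sft plants the heated libraries stood at 0.462 and 0.902 CPM and the unheated ones at 1.61 and 2.75 CPM, again with the heated pair lower (log2 fold change -1.65, edgeR adjusted p = 0.25).

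FUL2, a MADS-box gene of the FRUITFULL clade that acts in the flowering transition and in fruit, rose with heat in pHS:FT plants. Its level was 6.69 and 4.78 CPM in the heated libraries (144 and 82 reads), a mean of 5.73 ± 1.35 CPM (SD, n = 2). The unheated libraries held 0.663 and 0.170 CPM (15 and 4 reads), a mean of 0.416 ± 0.349 CPM (SD, n = 2). Every heated library was above every unheated one. The log2 fold change was 3.78 (SE 0.63), with an edgeR adjusted p of 0.021, or 0.012 without unheated sft replicate 1. The call was lost without heated replicate 2, either unheated pHS:FT library or either heated sft library (edgeR adjusted p from 0.055 to 0.14), with log2 fold changes from 3.10 to 5.04 over 17 alternative fits. In sft plants FUL2 stood at 0.693 and 0.473 CPM with heat and at 2.06 and 0.741 CPM without, the highest of these in the doubted library. The difference between the responses of the genotypes was 5.07 on the log2 scale (SE 0.89) with all libraries and 4.13 (SE 0.88) without that library, and neither passed the test (edgeR adjusted p = 0.20 and 0.22). For scale, the same row stood at 32.4 and 34.8 CPM in 35S:SFT stems and at 2.34 and 4.54 CPM in wild-type stems, unheated plants that were sequenced in another experiment and normalised separately.

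**Figure D1:**
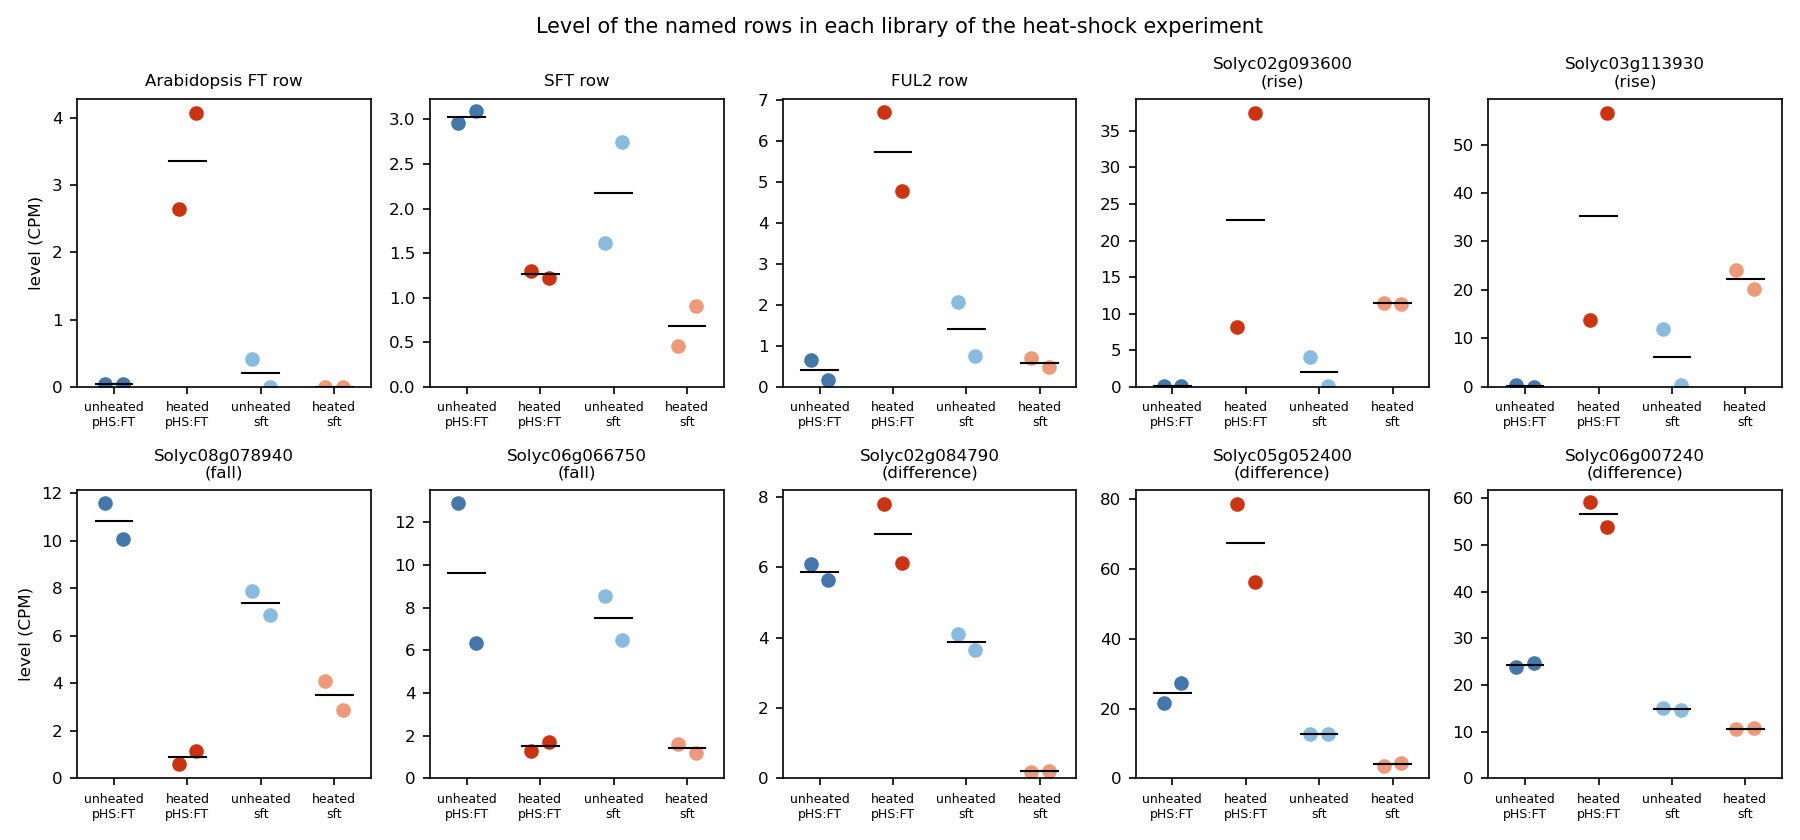
Level (CPM, linear axes that differ between panels) of the 10 named rows in the heat-shock experiment, with 1 point per library and a line at the mean of each group of 2. Arabidopsis FT and FUL2 are highest in both heated pHS:FT libraries, at 2.65 and 4.08 CPM for FT and 6.69 and 4.78 CPM for FUL2.

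Heat changed many transcripts in pHS:FT stems besides these. Of 20546 genes tested, 1230 were called at an adjusted p under 0.05 (5.99%), with 639 higher (3.11%) and 591 lower (2.88%) in the heated libraries. The rises were the larger changes. Among genes called higher, 273 rose 2-fold or more, 106 rose 4-fold or more, 48 rose 8-fold or more and 13 rose 32-fold or more. Among genes called lower the corresponding counts were 217, 26, 6 and 1. The median log2 fold change was 0.89 over the rises and -0.82 over the falls, beside 0.02 over all genes tested. Heated and unheated libraries did not overlap in any of the 1230 called genes, as was also the case in 54.1% of all genes tested. The number of calls rests on every pHS:FT and heated sft library: it was 408 without heated replicate 2, 2088 without heated replicate 1, 90 and 31 without unheated replicate 1 and 2, and 312 and 297 without heated sft replicate 1 and 2. Without unheated sft replicate 1 it was 1441 (6.89%), 770 higher (3.68%) and 671 lower (3.21%), and 1147 of these were among the 1230. A fit of the 4 pHS:FT libraries alone called 381 genes, of which 347 were among the 1230. The spread was unequal between groups. The log2 difference between the 2 libraries of a group, for genes with a minimum of 100 reads, had an SD of 0.381 in heated and 0.263 in unheated pHS:FT plants. In heated and unheated sft plants it was 0.2 and 0.381. The shared estimate treats these groups as alike.

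Calls were spread over all levels of expression, and more frequent among abundant transcripts. Of 1934 genes with a mean under 1 CPM in the pHS:FT libraries, 1.5% were called, with a median absolute log2 fold change of 2.74 among those called. Of 3608 genes above 64 CPM, 8.84% were called, with a median of 0.67. With 2 libraries a group, a gene with few reads can pass only with a large change. Neither the share called nor the size among called genes is therefore read as a trait of the response. Measured as a share of all normalised reads, the 639 risen genes took 2.77% and 2.66% in the unheated libraries and 5.30% and 6.07% in the heated ones. The 591 fallen genes went from 5.68% and 5.79% to 3.07% and 3.05%.

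**Figure D2:**
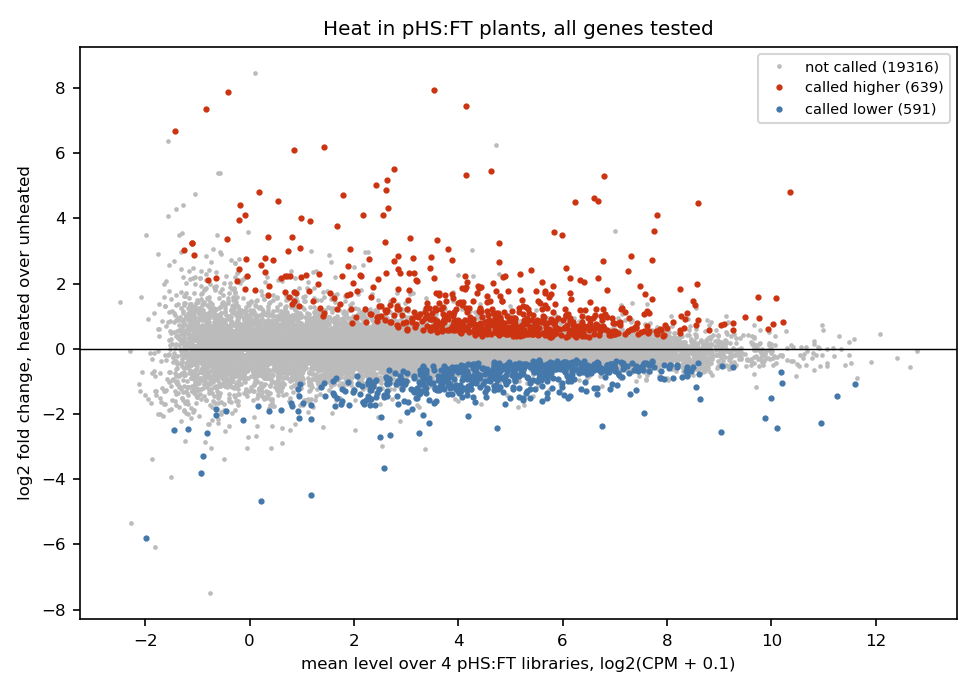
Log2 fold change with heat in pHS:FT plants against mean level (CPM, log axis) for the 20546 genes tested, with genes called higher and lower marked. The 639 rises reach 7.95 and the 591 falls reach -5.81 on the log2 scale.

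The largest rises were ranked by fold change among called genes with a mean of 4 CPM or more and groups that do not overlap. This rule favours transcripts that were almost silent without heat, so their low unheated level is not read as a result. Solyc02g093600, on chromosome 2, stood at 8.18 and 37.5 CPM in heated replicates 1 and 2 (176 and 644 reads) and at 0.0884 and 0.0849 CPM in the unheated libraries (2 reads each). The groups did not overlap, as the rule requires, and the heated libraries differed from each other. The ratio of summed reads was 245 (95% counting interval 95.2 to 900), the log2 fold change 7.95 (SE 1.53) and the edgeR adjusted p 0.031. Solyc03g113930, on chromosome 3, stood at 13.8 and 56.6 CPM in the heated and at 0.354 and 0.0424 CPM in the unheated libraries. It had the same order of libraries, with replicate 2 the higher of the heated pair, and a log2 fold change of 7.45 (SE 1.63, edgeR adjusted p = 0.042). Both genes lost the call without heated replicate 2, either unheated pHS:FT library or either heated sft library (edgeR adjusted p from 0.073 to 0.23). With 1 library left out, the log2 fold change ran from 6.48 to 8.67 for Solyc02g093600 and from 6.10 to 9.51 for Solyc03g113930. Both genes were also high in heated sft plants, at 11.5 and 11.4 CPM for Solyc02g093600 and at 24.1 and 20.3 CPM for Solyc03g113930. In the unheated sft group the doubted library held 4.01 CPM of Solyc02g093600 and its partner 0.174 CPM. For Solyc03g113930 these values were 11.9 and 0.436 CPM.

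The largest falls by the same rule were on chromosomes 8 and 6. Solyc08g078940 stood at 0.604 and 1.17 CPM in the heated and at 11.6 and 10.1 CPM in the unheated pHS:FT libraries, so that the groups were far apart, with the heated pair low and differing from each other. Its log2 fold change was -3.64 (SE 0.32, edgeR adjusted p = 0.0063), and it passed the test in all 17 alternative fits, with adjusted p up to 0.045. In sft plants it stood at 4.11 and 2.88 CPM with heat and at 7.89 and 6.89 CPM without. Solyc06g066750 stood at 1.30 and 1.69 CPM in the heated and at 12.9 and 6.32 CPM in the unheated pHS:FT libraries. Its unheated libraries differed from each other, but both were above the heated ones (log2 fold change -2.69, SE 0.39, edgeR adjusted p = 0.016). The call was lost without heated replicate 2 (edgeR adjusted p = 0.056) and without unheated replicate 1 (0.052), the latter with a log2 fold change of -2.09. In sft plants it stood at 1.62 and 1.20 CPM with heat and at 8.54 and 6.5 CPM without, a log2 fold change of -2.42 that did not pass the test there (edgeR adjusted p = 0.11).

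The heated pHS:FT libraries differed in the level of the steepest rises. Of the 48 genes that rose 8-fold or more, 39 were higher in heated replicate 2 than in replicate 1, with a median ratio of 1.73. In the unheated pair 16 of the 48 were higher in replicate 2, with a median ratio of 0.833. Over all 20546 genes tested, 10366 were higher in heated replicate 2. Summed over these 48 genes, the level was 4503 and 6397 CPM in heated replicates 1 and 2 and 291.9 and 207.7 CPM in the unheated libraries. Over all 639 rises the heated libraries were close, with a median ratio of 1.06 and sums of 54530 and 58600 CPM against 28340 and 27360 CPM without heat. The 217 genes that fell 2-fold or more summed to 9342 and 8699 CPM with heat and to 25680 and 26050 CPM without. Gene by gene, 141 of these 217 were higher in heated replicate 2 than in replicate 1, with a median ratio of 1.12. The unheated pair had a like tilt, with 151 higher in replicate 2 and a median ratio of 1.13. Of these classes, the heated replicates thus parted most in the steep rises. They parted less in the steep falls, whose sums lay close together, and there about as much as the unheated replicates did.

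**Figure D3:**
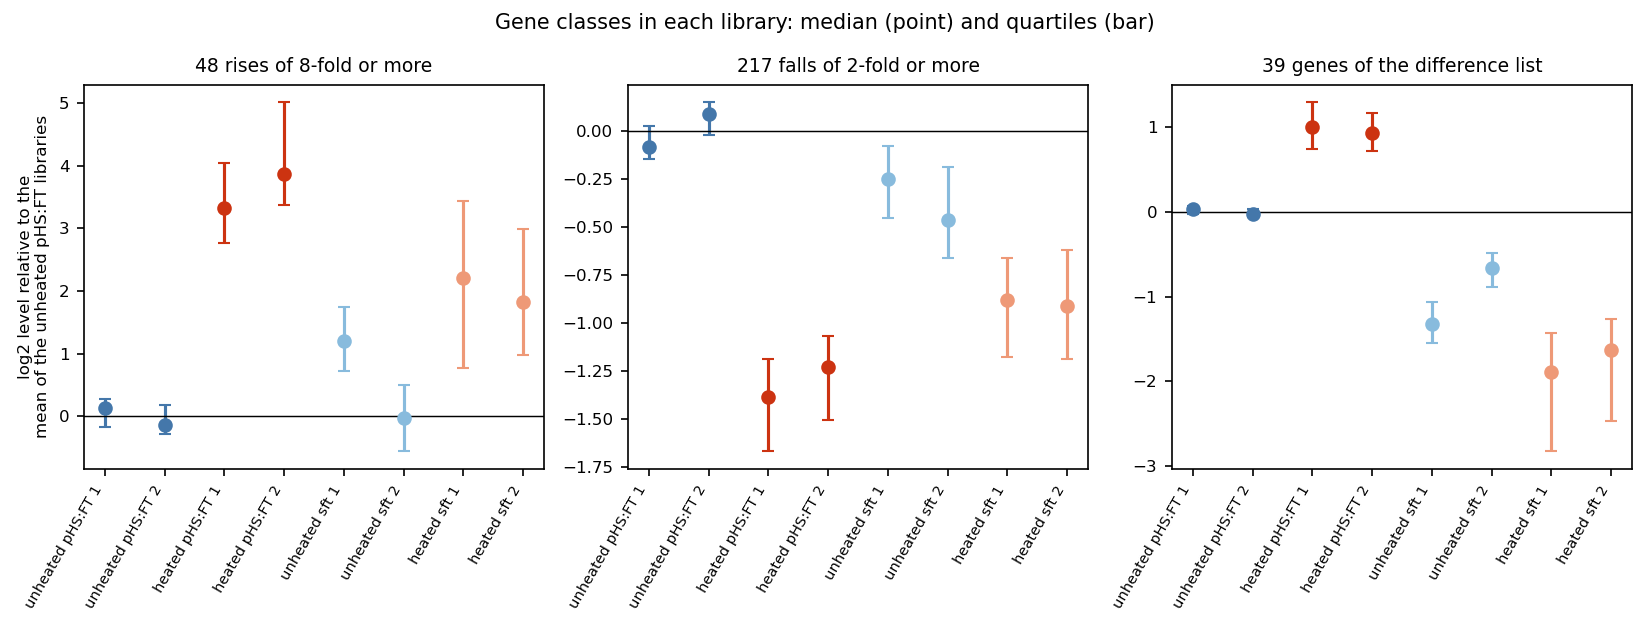
Log2 level in each of the 8 heat-shock libraries, relative to the mean of the unheated pHS:FT libraries, for the 48 genes that rose 8-fold or more, the 217 that fell 2-fold or more and 39 genes whose response differed between the genotypes (described further on). Points are medians over the genes and bars run from the lower to the upper quartile. The median of the 48 rises is 3.32 and 3.87 in the heated pHS:FT libraries, 2.21 and 1.82 in heated sft replicates 1 and 2, 1.2 in unheated sft replicate 1 and -0.0331 in its partner.

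Called genes lay on every chromosome, from 5.08% of the genes tested on chromosome 11 to 6.52% on chromosome 7. Of 633 risen genes on numbered chromosomes, 82 (13%) had a neighbouring tested identifier that also rose, against 6.04% of all genes tested with such a neighbour. Of 590 fallen genes, 57 (9.66%) had a fallen neighbour, against 5.65%. Runs of at least 3 consecutive tested identifiers called the same way numbered 4 for rises and 3 for falls. The longest was a run of 5 risen genes on chromosome 6, singled out after its values were seen, with log2 fold changes from 2.69 to 5.33. Its 5 genes summed to 844.5 and 1465 CPM in the heated pHS:FT libraries and to 76.95 and 67.82 CPM in the unheated ones. The heated sft libraries held 863.9 and 810.7 CPM, near heated pHS:FT replicate 1 and below replicate 2, and the unheated sft libraries held 144 and 81.74 CPM. Within the run, log2 fold changes in sft plants ran from -0.37 to 3.67. Adjacent members of a gene family can share reads, and the identifiers' families are not annotated here, so these 5 rows may not be independent.

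The heat-shock table also lists 96 microRNA stem-loop rows, of which 54 had any read and 16 were tested. Of these 16, 1 was called higher and none lower, beside 3.11% and 2.88% of all genes tested. At an unadjusted p under 0.05 the count was also 1, beside 5066 of 20546 over all genes. This row, SLY_miRNA_stem-loop_0003_00330, had 16 and 6 reads in the heated pHS:FT libraries and 0 in both unheated ones, so that it was at least 4.2-fold higher with 3 reads taken as the floor in each unheated library (edgeR adjusted p = 0.048, and 0.05 without unheated sft replicate 1). In sft plants it had 11 and 5 reads with heat and 10 and 3 reads without. The library kit makes fragments of longer RNA, so mature microRNAs are not measured by these rows.

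The heat response of pHS:FT plants was then set beside that of sft plants, which share no library with it. In sft plants 20 genes were called (0.0973% of those tested), 10 higher and 10 lower (0.0487% each). Without unheated sft replicate 1 there were 41 (0.196%), 11 higher (0.0526%) and 30 lower (0.143%). At an unadjusted p under 0.05 the counts were 5066 genes in pHS:FT and 1953 in sft plants. Of the 20 genes, 15 were called in the same direction in pHS:FT plants, which is 75% of the sft list and 1.22% of the pHS:FT list. Of the 41 genes called without unheated sft replicate 1, 10 were called higher and 7 lower in both genotypes (41.5% of that list), and 9 were called higher in pHS:FT and lower in sft plants. Fewer calls in sft plants do not show a weaker response, and the difference has its own test. Direction was largely shared: of the 639 genes that rose in pHS:FT plants, 507 (79.3%) had a positive log2 fold change in sft plants, and of the 591 that fell, 540 (91.4%) had a negative one. Of 20009 genes tested in every experiment used here, 48.9% were positive in sft plants.

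Sizes were smaller in sft plants for genes picked by their change in pHS:FT plants, a choice that favours large values there. The median log2 fold change of the rises was 0.89 in pHS:FT and 0.24 in sft plants, and that of the falls was -0.82 and -0.27. Without unheated sft replicate 1 the sft medians were 0.28 and -0.23. The 48 steepest rises had a median of 4.21 in pHS:FT plants and of 1.5 in sft plants, and the latter was 2.81 without that library. The smaller rise of these genes in sft plants thus moved with that library's values.

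**Figure D4:**
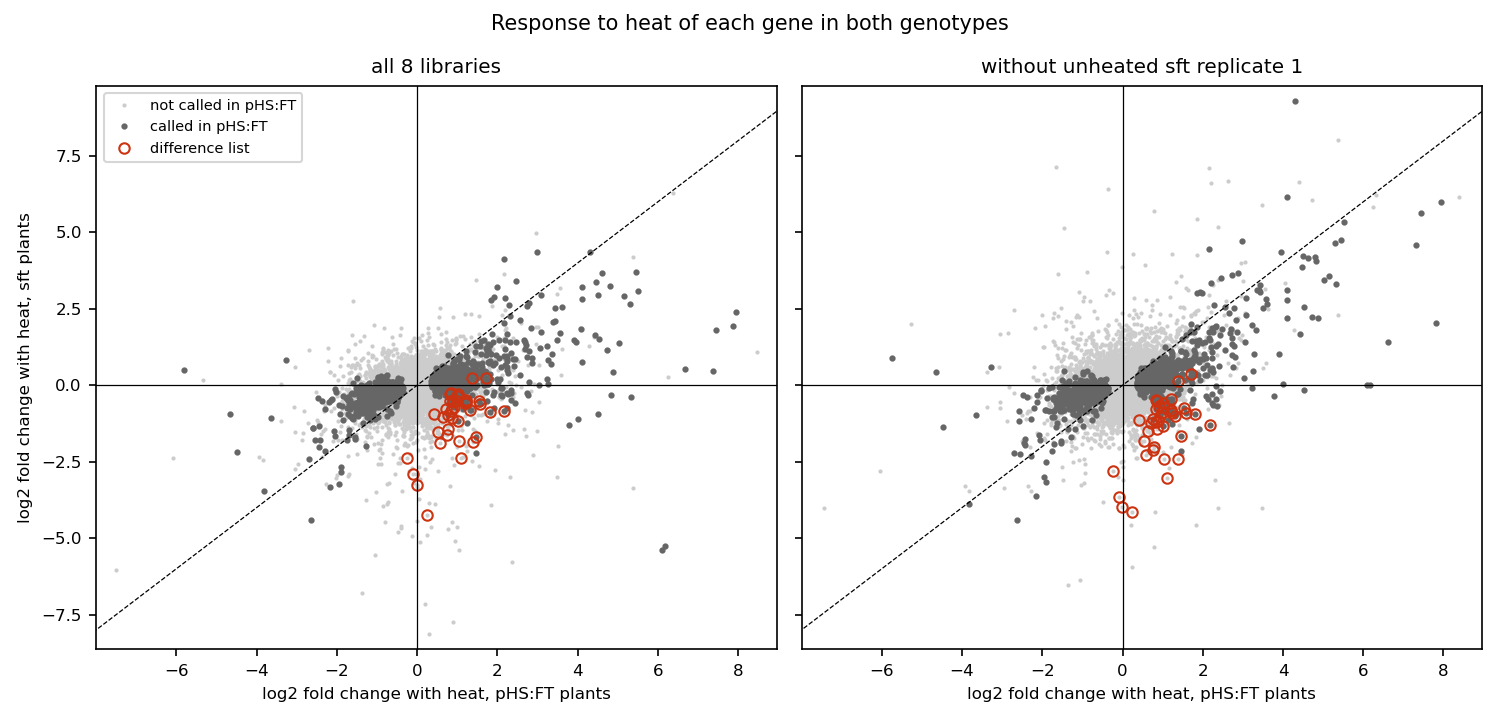
Log2 fold change with heat in sft plants (vertical axis) against that in pHS:FT plants (horizontal axis), 1 point per gene, with all 8 libraries and without unheated sft replicate 1. Dark points are genes called in pHS:FT plants, and red circles are the 39 genes whose response differed without that library. In both panels all 39 lie below the dashed line of equal change.

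Tested directly, the heat response differed between the genotypes for 3 genes with all libraries (0.0146%), each more positive in pHS:FT plants, while 1952 genes had an unadjusted p under 0.05. DESeq2 called 231, of which 164 were more positive and 67 more negative in pHS:FT plants. Solyc02g084790, on chromosome 2, stood at 7.81 and 6.11 CPM in heated and 6.10 and 5.65 CPM in unheated pHS:FT plants. In sft plants it stood at 0.185 and 0.215 CPM with heat and at 4.12 and 3.66 CPM without. It fell with heat in sft plants (log2 fold change -4.24, SE 0.29, edgeR adjusted p = 0.013). The difference between the genotypes was 4.49 on the log2 scale (SE 0.35, edgeR adjusted p = 0.021). Its change within pHS:FT plants was 0.25 and did not pass the test (edgeR adjusted p = 0.46).

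Solyc05g052400, on chromosome 5, moved in opposite directions. It stood at 78.8 and 56.4 CPM in heated and 21.7 and 27.4 CPM in unheated pHS:FT plants, and rose there by 1.46 on the log2 scale (SE 0.19, edgeR adjusted p = 0.011). In sft plants it stood at 3.56 and 4.38 CPM with heat and at 12.8 and 12.7 CPM without (log2 fold change -1.68, edgeR adjusted p = 0.054). The difference was 3.14 (SE 0.28, edgeR adjusted p = 0.037). Solyc06g007240, on chromosome 6, stood at 59.3 and 54.0 CPM in heated and at 23.9 and 24.7 CPM in unheated pHS:FT plants, against 10.5 and 10.8 CPM in heated and 15.1 and 14.6 CPM in unheated sft plants. Its 4 pairs of libraries were each tight and none overlapped, and the difference was 1.70 (SE 0.13, edgeR adjusted p = 0.021). All 3 differences kept their direction in 14 alternative fits each. Each lost the call without either unheated pHS:FT library or either heated sft library (edgeR adjusted p from 0.13 to 0.45).

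Without unheated sft replicate 1 the difference was called for 39 genes (0.186%), all more positive in pHS:FT plants, in a fit where the lone unheated sft library is assumed to vary like the others. Their differences ran from 1.24 to 4.40 on the log2 scale. Of the 39 genes, 33 were called higher with heat in pHS:FT plants and 15 were called lower with heat in sft plants, beside 3.68% and 0.143% of all genes in the same fit. The genes were chosen for a positive difference, which favours both kinds of call, so nothing is read from these counts. In that fit the median log2 fold change was 0.93 in pHS:FT and -1.12 in sft plants. There, 34 genes were positive in the former and negative in the latter. With all libraries the sft median was -0.83, and 1 of the 39 was called lower in sft plants, beside 0.0487% of all genes. The number called higher in pHS:FT plants was then 22, beside 3.11%. Summed over the 39 genes, heated pHS:FT libraries held 4570 and 4270 CPM and unheated ones 2276 and 2206 CPM. Heated sft libraries held 666 and 753.1 CPM, and unheated sft libraries 906.3 CPM (replicate 1) and 1453 CPM (replicate 2). These genes were also on the higher side in pHS:FT plants before heat. With all libraries 38 of the 39 were above unheated sft, with a median log2 difference of 0.96. None passed the test, but this comparison called 0 of all 20546 genes tested, so nothing is read from that. Without unheated sft replicate 1 all 39 were above, with a median of 0.68. The medians over all genes tested were -0.000637 and 0.0109.

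The 39 genes were then read in stems of unheated plants from other experiments of the series, which share no library with the heat-shock experiment. SFT transcript does not bear out the label pSFT-SFT, at 1.04 and 1.23 CPM there and 2.8 and 2.2 CPM in the wild type of that experiment, so these are named by their label. In libraries labelled pSFT-SFT against wild type, 34 of the 39 were called higher (87.2%) and 0 lower, beside 8.51% higher over all genes tested in both tables. Their median log2 fold change there was 1.59, beside -0.00481 over all genes. The share depends on the fit that gives the list: of genes with a more positive response in pHS:FT plants, 1 of 3 with all libraries, 31 of 84 without unheated sft replicate 2 and 83 of 164 with DESeq2 were called higher in the libraries labelled pSFT-SFT. In 35S:TFUL2 against wild-type stems 25 were called higher (64.1%, beside 7.54%) and 1 lower (2.56%, beside 4.93%), with a median of 0.59. In 35S:SFT against wild type 3 were called higher (7.69%, beside 0.756%), with a median of 0.08. The 35S:TFUL2 and 35S:SFT comparisons use the same wild-type libraries. In the grafts with a 35S:SFT donor no member was called (beside 0.0147% of all genes called lower in wild-type recipients and 0 in every other direction), while 38 of 39 were positive in sft recipients (median 0.96) and 37 of 39 in wild-type recipients (median 0.89), beside 48.9% and 50.4% of all genes.

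**Figure D5:**
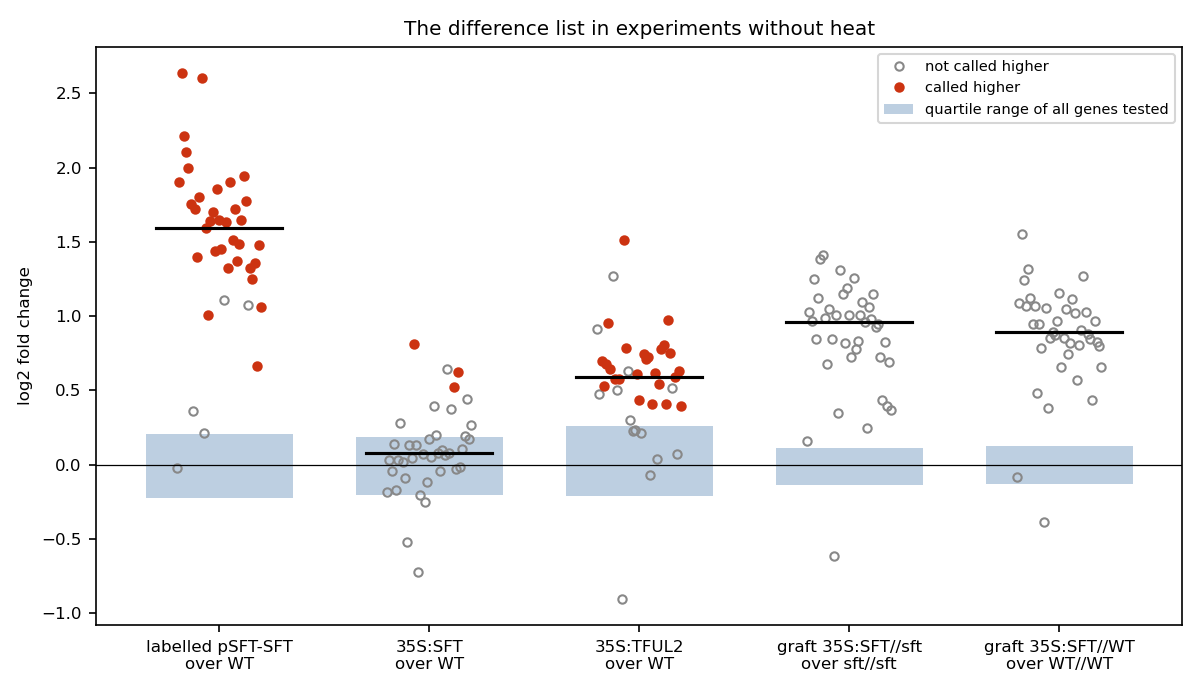
Log2 fold change of the 39 genes whose heat response was more positive in pHS:FT than in sft plants (fit without unheated sft replicate 1), in 5 comparisons of unheated stems from other experiments, 1 point per gene, with the quartile range of all genes tested. The median of the 39 is 1.59 in libraries labelled pSFT-SFT, 0.08 in 35S:SFT and 0.59 in 35S:TFUL2, each against wild type, and 0.96 and 0.89 in grafts onto sft and wild-type recipients.

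The wider set of genes called with heat in pHS:FT plants was read in the same way. Of 619 risen genes tested in libraries labelled pSFT-SFT, 128 were called higher there (20.7%, beside 8.51%) and 50 lower (8.08%, beside 8.83%). In 35S:SFT stems 21 of the 619 were called higher (3.39%, beside 0.756%). The fallen genes stood out in 35S:SFT stems by direction. Of 584 tested, 19 were called lower (3.25%, beside 0.954%) and 0 higher, and 69 (11.8%) had a positive log2 fold change, beside 50.3% of all genes, with a median of -0.36. In libraries labelled pSFT-SFT the fallen genes had a median of -0.00682, with 94 of 589 called lower (16%, beside 8.83%). In 35S:TFUL2 stems the risen genes went both ways, with 64 called higher (10.3%, beside 7.54%), 51 lower (8.24%, beside 4.93%) and a median of -0.02, and the fallen genes had 25 higher (4.28%), 32 lower (5.48%) and a median of -0.04. In the grafts no gene of either set was called, beside 0.0147% of all genes called lower in wild-type recipients and 0 in every other direction. Of the risen genes 51.7% were positive in sft and 66.4% in wild-type recipients, and of the fallen genes 33.7% and 27.7%, beside 48.9% and 50.4% of all genes. The fallen genes were also negative in heated sft plants in 91.4% of cases, as given above.

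In the other direction, genes chosen in unheated stems of other experiments were read for their response to heat. The 48 genes raised in both the libraries labelled pSFT-SFT and 35S:SFT, each against its own wild type, had a median log2 fold change of 0.59 with heat in pHS:FT plants, beside 0.02 over all genes. Of the 48, 12 were called higher (25%, beside 3.03% of genes tested in all tables) and 0 lower. In sft plants their median was -0.06 with all libraries and 0.16 without unheated sft replicate 1. With all libraries 1 was called higher there (2.08%, beside 0.045%) and 0 lower (beside 0.05%). The median difference between the genotypes was 0.58, or 0.45 without unheated sft replicate 1. With all libraries the difference was called for 1 gene, more positive in pHS:FT plants (2.08%, beside 0.015%). The 68 genes lowered in both had a median of -0.03 with heat in pHS:FT plants, with 5 called lower (7.35%, beside 2.91%) and 1 higher (1.47%, beside 3.03%). The count called lower was 7 without unheated sft replicate 1 (10.3%, beside 3.29%). The list raised in both was thus on the higher side by median and by calls, while the list lowered in both had a median near 0 and a share of lower calls above that of all genes.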

How the data were processed

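The values are whole-number read counts per gene, in 2 tables as deposited by the authors: 34825 lines for the 8 heat-shock libraries and 34728 for the other 24. The submitters' processing notes list HTSeq 0.6.1, Bowtie2 2.2.6, TopHat2 2.1.0, Trim Galore and FastQC 0.11.5. Their roles, the genome build and the strand setting are, in the sources used here, not given. Reads of overlapping, antisense or near-identical genes are therefore uncertain.

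Groups came from titles and genotype labels. Grafts titled sft//wt carry the label sft//sft, which was followed. Tests used edgeR 4.0.16 in R 4.3.3 (glmQLFit and glmQLFTest, two-sided, TMM, filterByExpr with minimum count 10 and minimum total 15). All 4 heat-shock groups entered 1 fit, with Benjamini-Hochberg adjustment over the 20546 genes tested. A gene was called where its adjusted p was under 0.05. The SE is the size of the log2 fold change divided by the root of its F. Other experiments were fitted separately. The heat-shock fit was also run on simulated data that gave a gene the same spread in all 4 groups. Unequal spread between groups was therefore not covered. Alternatives included DESeq2 1.42.0, other normalizations, no filter, a replicate block and leaving out each library.

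Named genes were the 2 largest rises and 2 largest falls among called genes with a mean of 4 CPM or more and groups that do not overlap, the genes whose response differed between genotypes, and the FT, SFT and FUL2 rows. The members and lists were chosen with earlier results of these data known. The 33 planned lists by gene name and a promoter search were not run, because no identifier matched a name and no promoter sequence was used here. Every column of per-sample values was used.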

Additional observations from a re-analysis of the deposited data

Results flagged for a closer look

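A test of the difference itself set apart 3 genes whose response to heat differed between pHS:FT and sft plants, by 4.49 for Solyc02g084790, 3.14 for Solyc05g052400 and 1.70 for Solyc06g007240 on the log2 scale, each more positive in pHS:FT plants. Without unheated sft replicate 1, the library that holds reads of Arabidopsis FT, the same test called 39 genes, all in that direction. Without unheated sft replicate 2 it called 89 genes, of which 84 were more positive in pHS:FT plants and 5 more negative. With either library left out the unheated sft group rests on the other one. The part of that library in these counts was not tested further.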

How the results depend on the processing

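The count of genes called with heat in pHS:FT plants (1230) became 735 with a replicate block, 381 with only the compared groups and 98 at an adjusted p under 0.01. It ran from 31 to 2088 with single libraries left out. The other normalizations, no filter, DESeq2 and leaving out the microRNA and FT rows did not move it by more than 1.5 times (1099 to 1811). The count for the difference between genotypes (3) became 25 with no filter, 231 with DESeq2 and 0 with a replicate block, and ran from 0 to 89 with single libraries left out. That for heat in sft plants (20) became 53 with no filter, 252 with DESeq2, 11 with a replicate block and 7 with only the compared groups, and ran from 0 to 146. The labels do not say what a shared replicate number marks, so the numbers were not taken to pair samples. Same-numbered pHS:FT libraries deviated with a correlation of -0.169 and same-numbered sft libraries with 0.318, the highest of the correlations computed. A crossed pairing, added after seeing the data, gave 1497 calls. With the replicate block Solyc02g093600 and Solyc03g113930 had an adjusted p of 0.059 and 0.071 and lost the call, as did FT (0.057) and the 3 genes whose responses differed (0.11 to 0.13). Each named gene had 14 to 17 alternative fits, which gave 160 results when each gene was counted once per fit. The direction was kept in all 160 results and the side of the threshold in 120. The cause of the lost calls was not tested. With 2 libraries a group, 3 reads correspond to at least 0.107 CPM, and changes of rarer transcripts were not detectable.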
